A study of Mus musculus with 6 samples.

Results

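The 8 genes described here belong to the death receptor and caspase pathway. They are the initiator Casp8, its competitor Cflar, the adaptors Fadd and Ripk1, and the apoptosome parts Apaf1 and Cycs. With them are the caspase inhibitor Xiap and the ubiquitin ligase gene Birc3. The 8 genes were taken by gene symbol, without a rule on their values but with earlier results of these data known. They are 8 of the 29393 genes in the count table and 8 of the 14916 genes that could be tested. The RNA came from mouse (C57BL/6) cDNT, T cells with neither CD4 nor CD8 at the surface, which the study's methods describe as converted in culture from CD4+CD25- T cells of spleen and lymph node by coculture with IL-2 and mature dendritic cells, followed by sorting. The groups are called W/O IL-10 (control libraries) and W/ IL-10 (IL-10 libraries). Cells of the W/ IL-10 group received IL-10 at 50 ng/ml for 24 h and those of the W/O IL-10 group did not. Each group had 3 libraries. The methods add anti-CD3/CD28 antibodies to the IL-10 culture, and whether the control cells received them is not stated in the sources used here. The labels give adult mice and spleen, without an exact age. The methods list male C57BL/6 mice of 8 weeks and CD45.1 congenic mice, with CD45.1-positive donors for the conversion. None of this is stated for these libraries in particular. Neither source says that the 3 libraries of a group came from separate cultures, so that the p-values measure the spread between libraries, which may be technical.

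Death receptors such as Fas and the TRAIL and TNF receptors pass their signal through a small protein complex at the membrane or in the cytosol. FADD recruits procaspase-8, cFLIP (the Cflar product) competes for the same place and limits caspase-8 activation, and RIPK1 carries the TNF receptor signal toward either NF-kB or cell death, depending on how it is ubiquitinated by cIAP2 (Birc3) and related ligases. The mitochondrial route uses cytochrome c (Cycs), which on release binds APAF1 and activates caspase-9, and XIAP blocks caspases downstream of both routes. In activated T cells these genes are known for setting how readily restimulated cells die.

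The libraries held 21619420 to 23967088 counts on genes. The 8 genes had between 159 counts (Fadd) and 3773 counts (Cflar) per library, far above the 3 counts (0.123 to 0.146 CPM, counting error only) taken as the floor of detection. CPM are counts rescaled to a common library total, after edgeR's TMM factors, and compare libraries, not genes of different length. Cd3e, which marks T cells, had a mean of 250.3 CPM in controls and 301 CPM with IL-10. Cd4 was near 0 (1.39 and 0.889 CPM), in keeping with the label, but against it Cd8a mRNA was present at 107 and 158 CPM and rose (adjusted p = 0.0369, edgeR quasi-likelihood test), with Cd8b1 (adjusted p = 0.0306). The 7 T cell markers summed to 2675 to 3101 CPM in controls and 3525 to 3609 CPM with IL-10, with none of the 7 past the test. The 6 B cell markers summed to 209 to 387 and 171 to 272 CPM, and the 8 macrophage and monocyte markers to 27.6 to 35.4 and 33.4 to 36.7 CPM. Most of the latter sum was Cd68, with 22.1 and 27.5 CPM. Cd14 had 3.68 and 2.50 CPM, Itgam 1.12 and 2.24, Adgre1 1.75 and 1.16, and Lyz2 1.77 and 1.16, none of them called by edgeR. Csf1r, Mertk and Fcgr1 were close to 0. The 7 dendritic cell markers found summed to 31.3 to 34.6 CPM in controls and 52 to 62.2 CPM with IL-10. Of these, Itgax rose from 20.4 to 43.2 CPM (adjusted p = 0.00383, edgeR). Xcr1 had 3.89 and 5.89 CPM and was higher in each W/ IL-10 library, Zbtb46 had 6.70 and 4.94 CPM and was lower in each, and Batf3 had 1.86 and 1.40 CPM, none of them called by edgeR. Flt3, Clec9a and Siglech stood near 0. The 6 neutrophil markers summed to 3.14 to 8.78 and 4.38 to 7.14 CPM. The part of these other cells in the results was not tested, and in bulk RNA fewer cells of a type and less RNA per cell cannot be told apart.

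None of the 8 genes was called as changed by IL-10, when the quasi-likelihood p-values of edgeR were adjusted over every tested gene (Benjamini-Hochberg) and held to 0.05. DESeq2 and limma-voom called 0 of the 8 as well. Among the 14916 tested genes edgeR called 327 (2.19%), and 1.45% when a fold change of at least 1.5 was also asked. At an unadjusted p under 0.05, 3 of the 8 passed (Casp8, Cflar and Cycs), against 14.7% of the tested genes. For 5 of the 8 the groups were fully apart, with no overlap of their values, against 22.6% of the tested genes. Casp8, Cflar, Ripk1 and Cycs were higher in every W/ IL-10 library (11.3% of the tested genes were), and Fadd was lower in every one (11.2%). The log2 fold changes ran from -0.21 for Fadd to 0.31 for Cflar with a median of 0.17, where the median over the tested genes was 0.0064. For 7 of the 8 the 95% interval of the change lay within a fold of 1.5 either way, and for Xiap it reached from 0.894-fold to 1.62-fold.

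**Figure D1:**
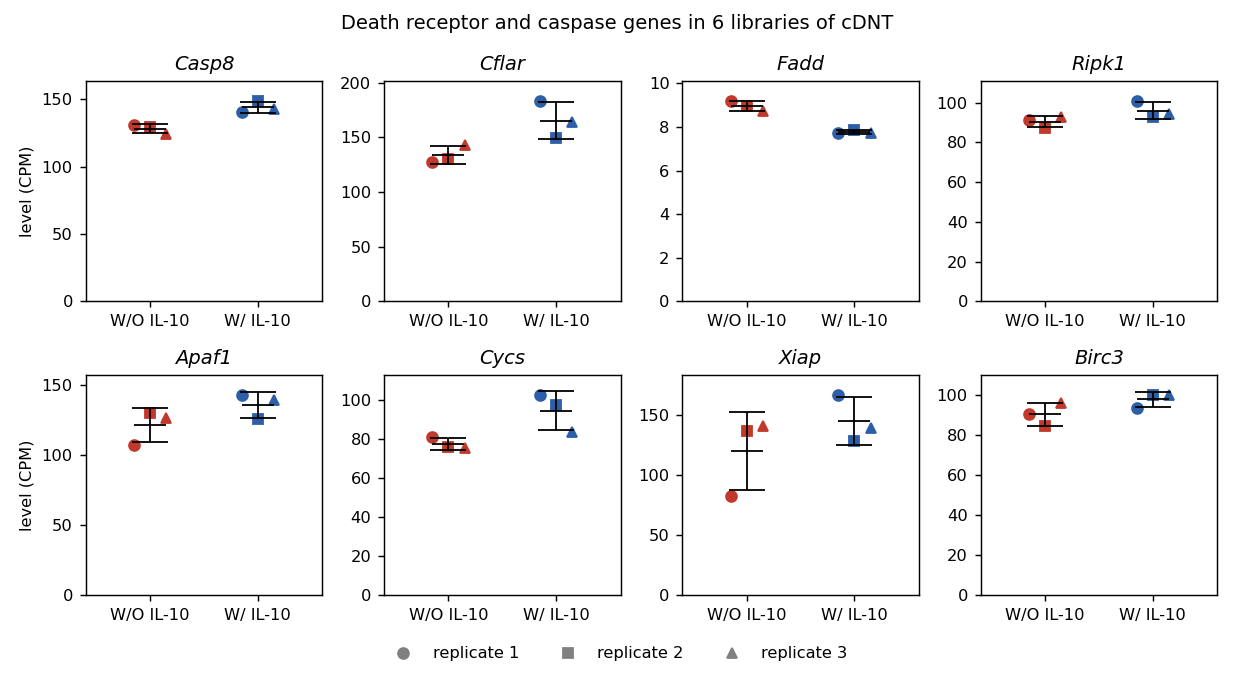
Level of each of the 8 genes in CPM (vertical axis, from 0, own scale per gene) in the 3 W/O IL-10 (red) and 3 W/ IL-10 (blue) libraries, with the marker shape giving the replicate and the black bars the mean and SD. Fadd is lower in each W/ IL-10 library, the points of Casp8, Cflar, Ripk1 and Cycs are higher there, and the low Xiap point is W/O IL-10 replicate 1 at 82.9 CPM.

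Casp8, which encodes the initiator caspase of the death receptors, lies on chromosome 1 of GRCm38 (ENSMUSG00000026029, 58795374 to 58847503, plus strand). Replicates 1, 2 and 3 had 131, 129 and 124 CPM without and 140, 149 and 143 CPM with IL-10. The control values lay below all IL-10 values, with the highest control at 131 CPM and the lowest IL-10 library at 140 CPM. The group means were 128 ± 3.35 and 144 ± 4.32 CPM (SD, n = 3 libraries), a fold of 1.12 with a 95% interval of 1.01 to 1.25 (log2 fold change 0.17, standard error 0.07, adjusted p = 0.283, edgeR). The neighbouring transcript Gm20257 shares 4.4% of the 50-base stretches of Casp8 and had 75 to 139 counts per library, against 2888 to 3351 for Casp8.

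Cflar lies just before Casp8 on the same strand (ENSMUSG00000026031, chromosome 1, 58711508 to 58758884), with 36489 bases between the gene models. Its levels were 128, 130.2 and 143 CPM in controls and 183, 149 and 164 CPM with IL-10. The groups did not overlap, although the highest control (143) and the lowest treated library (149) were close. This was the largest change of the 8, from 134 ± 8.34 to 166 ± 17.1 CPM (SD, n = 3), a fold of 1.24 with a 95% interval of 1.07 to 1.43 (log2 fold change 0.31, standard error 0.09, adjusted p = 0.153, edgeR). With each library left out in turn the log2 fold change stayed between 0.23 and 0.38, and Cflar was not called in any of these 6 fits. It was called in 1 of the 14 alternatives run, the correction for GC content and length combined with the replicate number as a block (log2 fold change 0.27, adjusted p = 0.0394, edgeR). In that fit 3.56% of the tested genes were called as higher.

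As cFLIP and caspase-8 occupy the same complex, the ratio of their counts within a library is of interest and does not depend on library scaling. The Cflar to Casp8 count ratio was 0.976, 1.01 and 1.15 W/O IL-10 and 1.31, 1.00 and 1.15 W/ IL-10. The groups overlapped, since W/ IL-10 replicates 2 and 3 fell inside the control range. The mean log2 ratio was 0.06 ± 0.13 and 0.20 ± 0.19 (SD, n = 3), a difference of 0.14 that was within the spread (two-sided exact permutation p = 0.5, where 3 libraries against 3 cannot go below 0.1).

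Fadd encodes the adaptor that joins the death domain of the receptors to caspase-8 (ENSMUSG00000031077, chromosome 7, 144577318 to 144582463, minus strand). It was the scarcest of the 8, with 9.19, 8.98 and 8.74 CPM W/O IL-10 (203 to 225 counts) and 7.73, 7.86 and 7.71 CPM W/ IL-10 (159 to 177 counts). Each IL-10 library was below each control, and the libraries within a group were close together. The means were 8.97 ± 0.225 and 7.77 ± 0.0820 CPM (SD, n = 3), a fold of 0.866 with a 95% interval of 0.716 to 1.05 (log2 fold change -0.21, standard error 0.12, adjusted p = 0.474, edgeR). The antisense gene Faddos covers 6.1% of the exon bases of Fadd and had 4 to 12 counts per library. Strand use in the counting is not given in the sources used here.

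Ripk1, the kinase that sits between survival and death signals of the TNF receptor (ENSMUSG00000021408, chromosome 13, 34002363 to 34037147, plus strand), had 91.3, 87.4 and 92.7 CPM in controls and 101, 93.0 and 94.2 CPM with IL-10. The highest control and the lowest IL-10 library differed by far less than the SD within a group. The means were 90.5 ± 2.78 and 96.0 ± 4.24 CPM (SD, n = 3), a fold of 1.06 with a 95% interval of 0.953 to 1.18 (adjusted p = 0.612, edgeR). Serpinb6a, on the opposite strand, lies over 2.9% of the exon bases of Ripk1.

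The IL-10 receptor signals through STAT3, whose usual DNA motif is TTCNNNGAA, the same on both strands. The motif was looked for in 300-base windows from RefSeq (GRCm38.p6, 250 bases before to 50 after a gene start), of which the 8 genes have 11. It occurs in 8.3% of the 32851 windows of all genes, and among the 8 genes in 1 window, that of a downstream start of Ripk1 (chr13:34002624-34002923, plus strand), where it stands 108 and 11 bases before the start. That window is shown with the matches in capitals, next to the window of Cflar (chr1:58711241-58711540, plus strand), the gene with the largest change, which holds no match. A match is a string of letters and not a measured binding site.
Ripk1: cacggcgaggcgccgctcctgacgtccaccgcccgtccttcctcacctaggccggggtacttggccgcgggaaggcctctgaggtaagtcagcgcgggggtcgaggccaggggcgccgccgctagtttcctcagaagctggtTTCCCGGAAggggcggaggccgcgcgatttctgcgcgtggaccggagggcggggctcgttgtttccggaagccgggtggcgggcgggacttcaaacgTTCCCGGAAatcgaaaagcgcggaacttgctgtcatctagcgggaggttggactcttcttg
Cflar: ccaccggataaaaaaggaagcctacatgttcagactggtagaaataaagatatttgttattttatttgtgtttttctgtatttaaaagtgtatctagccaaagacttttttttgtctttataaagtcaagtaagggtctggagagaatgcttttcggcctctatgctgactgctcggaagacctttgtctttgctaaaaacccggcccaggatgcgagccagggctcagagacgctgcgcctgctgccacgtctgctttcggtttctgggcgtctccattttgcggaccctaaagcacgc

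Apaf1 encodes the scaffold of the apoptosome (ENSMUSG00000019979, chromosome 10, 90989311 to 91082770, minus strand). Its levels were 107, 129.7 and 126 CPM in controls and 143, 125 and 139 CPM with IL-10. The groups overlapped, with W/ IL-10 replicate 2 below 2 of the 3 controls. The fold was 1.12 (121 ± 12.1 and 136 ± 9.25 CPM, SD, n = 3) with a 95% interval of 0.968 to 1.30 (adjusted p = 0.460, edgeR), and without W/O IL-10 replicate 1 the log2 fold change was 0.08 in place of 0.17.

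Cycs encodes cytochrome c, the electron carrier that triggers the apoptosome once it leaves the mitochondrion (ENSMUSG00000063694, chromosome 6, 50562563 to 50566538, minus strand). It had 80.9, 75.9 and 75.4 CPM in controls and 102, 97.4 and 83.4 CPM with IL-10. The 3 IL-10 libraries were the higher ones, but replicate 3 exceeded the highest control by little. The means were 77.4 ± 3.05 and 94.4 ± 9.87 CPM (SD, n = 3), a fold of 1.22 with a 95% interval of 1.06 to 1.40 (log2 fold change 0.29, standard error 0.09, adjusted p = 0.168, edgeR). After a correction for GC content and length the log2 fold change was 0.10 (adjusted p = 0.769), and the groups overlapped.

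The Cycs count carries a further limit, because the genome holds copies of the gene: 26.1% of its 50-base stretches occur in transcripts of other genes. Gm10053 on chromosome 19 (24875686 to 24876631) matches the Cycs coding sequence at 315 of 315 bases, and the processed pseudogene Gm10108 on chromosome 5 at 313 of 315. Reads from the coding part therefore cannot be told apart by sequence between Cycs and Gm10053. The first 90 coding bases are shown for the 3 genes (Cycs at chr6:50565571-50565660, minus strand), with bases that differ from Cycs in capitals, and they come from the GENCODE M21 transcripts.
Cycs: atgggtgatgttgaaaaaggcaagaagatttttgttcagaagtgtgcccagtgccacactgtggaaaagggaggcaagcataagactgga
Gm10053: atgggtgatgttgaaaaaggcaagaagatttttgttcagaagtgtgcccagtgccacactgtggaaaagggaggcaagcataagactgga
Gm10108: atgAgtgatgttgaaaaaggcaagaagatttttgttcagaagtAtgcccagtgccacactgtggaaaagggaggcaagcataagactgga

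Gm10053 was given 104 to 167 counts per library (log2 fold change 0.17, adjusted p = 0.740, edgeR) and Gm10108 at most 2. With the counts of Gm10053 added to those of Cycs, an alternative chosen after seeing the data, the log2 fold change of Cycs was 0.28 (adjusted p = 0.177). The Apaf1 to Cycs count ratio was 1.32, 1.71 and 1.67 W/O IL-10 and 1.39, 1.28 and 1.67 W/ IL-10. The groups overlapped, and the mean log2 ratio differed by -0.11 (two-sided exact permutation p = 0.5).

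Xiap, whose product binds and blocks caspases (ENSMUSG00000025860, chromosome X, 42059679 to 42109656, plus strand), had 82.9, 137 and 141 CPM in controls and 167, 128 and 139 CPM with IL-10. W/O IL-10 replicate 1 stood far below the other 5 libraries, among which the groups were mixed. Its mean was 120 ± 32.5 CPM in controls and 145 ± 20 CPM with IL-10 (SD, n = 3), the widest spread of the 8, with a fold of 1.2 (95% interval 0.894 to 1.62, adjusted p = 0.563, edgeR). Without that library the log2 fold change was 0.05 in place of 0.27. After the correction for GC content and length, W/O IL-10 replicate 1 was at 140 CPM, just above the 122 to 138 CPM of the other 5 libraries, and the log2 fold change was -0.03.

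Birc3 encodes cIAP2, a ubiquitin ligase of RIPK1 (ENSMUSG00000032000, chromosome 9, 7848699 to 7873186, minus strand). It had 90.3, 84.3 and 95.8 CPM in controls and 93.4, 99.6 and 99.9 CPM with IL-10. The groups overlapped, because W/ IL-10 replicate 1 fell below the highest control. The means were 90.1 ± 5.72 and 97.6 ± 3.66 CPM (SD, n = 3), a fold of 1.08 with a 95% interval of 0.964 to 1.22 (adjusted p = 0.526, edgeR). Birc2, the gene of the paralog cIAP1, had 81.8 ± 11.3 CPM in controls and 99.96 ± 8.06 CPM with IL-10 (SD, n = 3) and was not called either (adjusted p = 0.263, edgeR). Birc3 has 7.6% of its 50-base stretches in common with further genes, Gm7019 (1 to 16 counts per library) and Birc2 first among them.

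**Figure D2:**
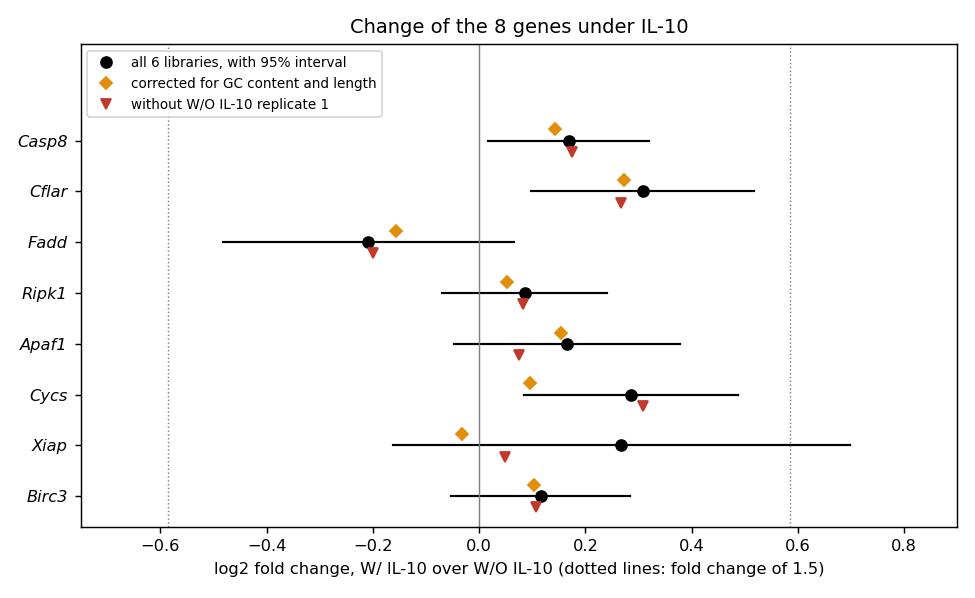
Log2 fold change of W/ IL-10 over W/O IL-10 for the 8 genes (black points with 95% intervals), after correction for GC content and gene length (orange diamonds) and without W/O IL-10 replicate 1 (red triangles), with dotted lines at a fold of 1.5. Xiap moves from 0.27 to -0.03 and 0.05, Cycs from 0.29 to 0.10 under the correction, and Cflar stays near 0.27 under both.

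To compare the genes with each other, levels were taken per length, as reads per kilobase of merged exons, on the CPM scale (RPKM). Casp8 was the most abundant, with 44.3 ± 1.16 RPKM in controls and 49.8 ± 1.49 RPKM with IL-10 (SD, n = 3). Cycs followed with 22.7 ± 0.895 and 27.7 ± 2.90 RPKM, and Birc3 with 18 ± 1.14 and 19.5 ± 0.730 RPKM. These 3 levels were separate in both groups. Apaf1 (13.4 and 15 RPKM), Xiap (12.7 and 15.3), Ripk1 (10.8 and 11.5) and Cflar (10.6 and 13.1) formed a middle group in which each neighbour in the order overlapped the next in both groups. Fadd came last with 2.30 ± 0.0576 and 1.99 ± 0.0210 RPKM. The merged exons of Cflar span 12669 bases, the most of the 8, and if the cells use shorter transcripts its level per length is understated.

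**Figure D3:**
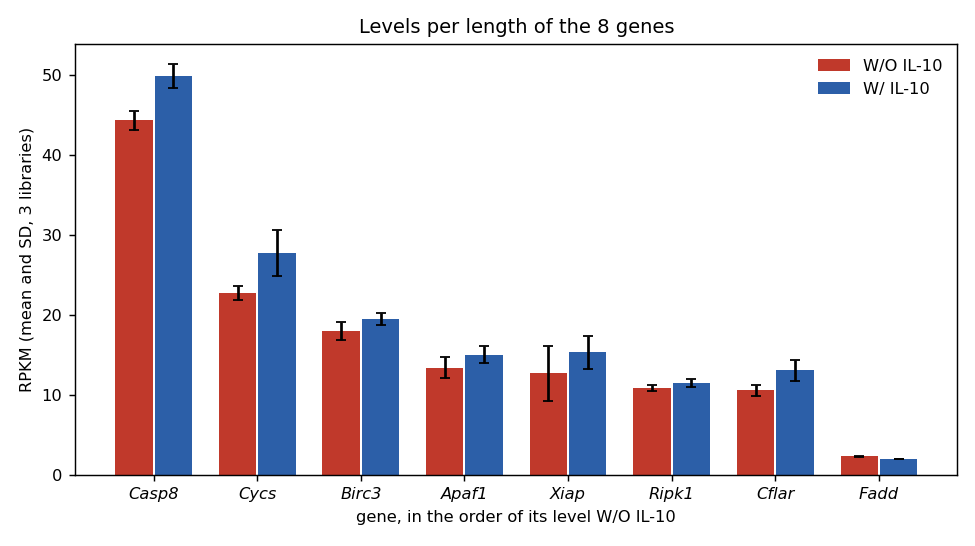
Mean RPKM of the 8 genes (bars from 0, with SD over 3 libraries) W/O IL-10 (red) and W/ IL-10 (blue), in the order of the level W/O IL-10. Casp8 stands highest at 44.3 and 49.8 RPKM and Fadd lowest at 2.30 and 1.99.

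Over the whole table, the change between the groups moved with the GC content of the transcripts. The correction takes out any difference between the groups that follows GC content or length, whatever its source. The part of GC content in the results was therefore not tested. The median log2 fold change was 0.23 for the 874 genes above 36% and up to 40% GC, 0.12 for the 2304 genes up to 44%, 0.04 for the 3064 genes up to 48% and -0.02 for the 3230 genes up to 52%. Xiap has 36.8% GC, Cycs 40.8%, Cflar 44.4%, Ripk1 45.1%, Apaf1 46.0%, Casp8 and Birc3 46.6%, and Fadd 51.2%. Xiap thus stood close to the median of genes of its GC content, and Cflar above it by more than any other of the 8. For W/O IL-10 replicate 1 the fitted trend lay 0.75 below the mean of the libraries on the log2 scale at the GC content and length of Xiap, and 0.31 below at those of Cycs. The trend of W/ IL-10 replicate 1 went the other way, 0.27 above the mean at Xiap and 0.19 above at Cycs. Without W/ IL-10 replicate 1 the log2 fold changes of Xiap, Cycs and Cflar were 0.15, 0.22 and 0.23. With all libraries they were 0.27, 0.29 and 0.31. After the correction, the groups did not overlap for 4 of the 8 genes (21.7% of all tested): Casp8, Cflar and Apaf1 were higher and Fadd lower W/ IL-10. The median log2 fold change of the 8 was then 0.10.

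**Figure D4:**
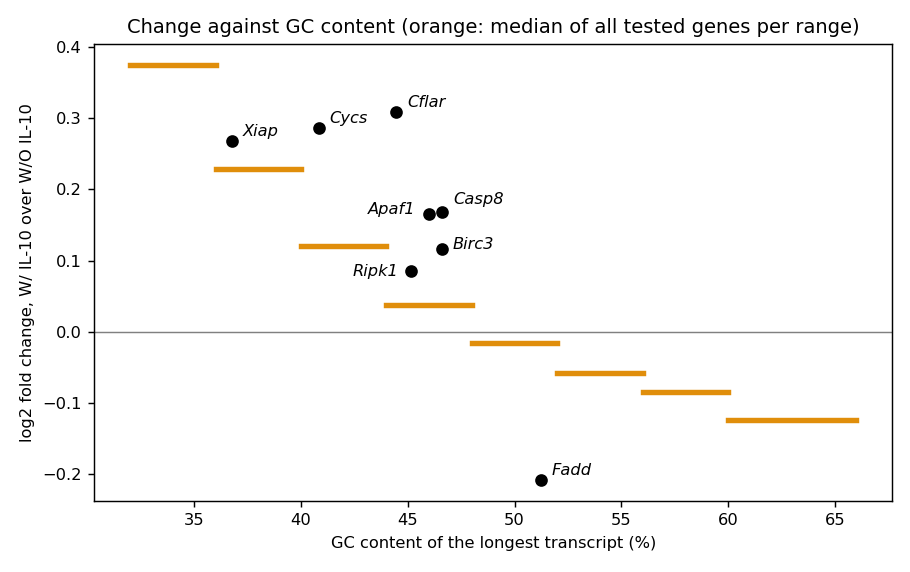
Log2 fold change W/ IL-10 over W/O IL-10 (vertical axis) against the GC content of the longest transcript in percent for the 8 genes (points), with the median of all tested genes per GC range (orange lines, the outermost ranges drawn only in part). The medians go down from 0.37 to -0.12 with rising GC content, and Cflar lies at 0.31 where the medians are near 0.04.

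Around the 8 genes, 61 other genes of the pathway were listed by role, of which 60 were tested. Of the 60, Tnfsf10, Traf1 and Birc5 rose (1.21% of all tested genes did) and Lta fell (0.979% did). The median log2 fold change of the 60 was -0.0016. Without W/O IL-10 replicate 2, or without any 1 of the W/ IL-10 libraries, Tnfsf10 was the 1 gene of the 60 still called, while the calls over all genes dropped to between 35 and 104. Without W/O IL-10 replicate 1, 6 of the 60 and 525 of all tested genes were called, and without W/O IL-10 replicate 3, 4 and 195 were.

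**Figure D5:**
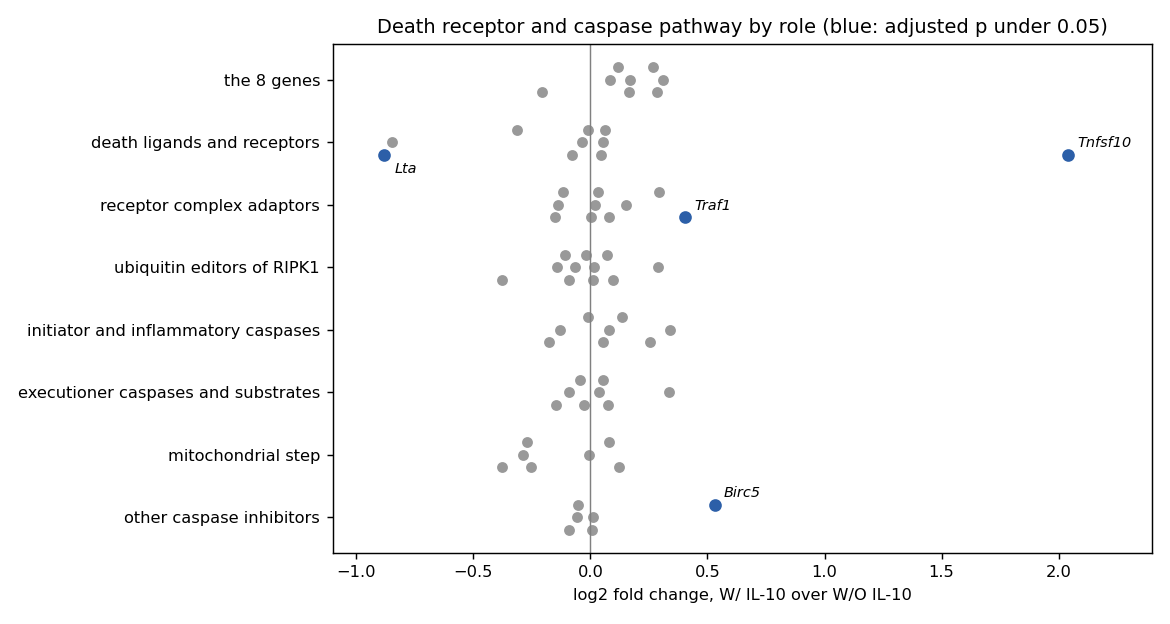
Log2 fold change W/ IL-10 over W/O IL-10 of each tested gene of the pathway (points, spread vertically for sight), by role, with the 8 genes on top and genes at an adjusted p under 0.05 in blue with their names. Tnfsf10 stands apart at 2.04, Lta is at -0.88, and the 8 genes lie between -0.21 and 0.31.

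Of the 10 death ligands and receptors, 1 rose and 1 fell. Tnfsf10, the gene of the ligand TRAIL, went from 21.6 ± 2.20 to 88.8 ± 15.2 CPM (mean ± SD of 3 libraries), or by 2.04 on the log2 scale (edgeR adjusted p = 0.000503), while Tnfrsf10b, the gene of its mouse death receptor, had 21.4 ± 1.31 and 20.2 ± 2.43 CPM (adjusted p = 0.795). Lta, the gene of lymphotoxin alpha, fell from 11.8 ± 0.650 to 6.39 ± 0.834 CPM (edgeR adjusted p = 0.0213). Tnfrsf25, the gene of death receptor 3, had 16.3 ± 4.69 CPM in controls and 9.07 ± 1.34 CPM with IL-10 (SD, n = 3) without overlap, and was not called (edgeR adjusted p = 0.0924). Tnfrsf1b was called in 6 of the 14 alternatives, with adjusted p from 0.00357 (DESeq2) to 0.214 (edgeR without 1 library). Tnfrsf25 was called by DESeq2 and, with edgeR, without a filter, without W/O IL-10 replicate 3, and with the GC correction and block together. Fas was low, at 8.98 and 9.31 CPM (adjusted p = 0.880), beside 105 and 104 CPM of Fasl (adjusted p = 0.979). Tnfrsf1b, the gene of TNF receptor 2 and the one with the highest CPM of this list, had 288 ± 7.06 CPM in controls and 232 ± 1.17 CPM with IL-10 (SD, n = 3) without overlap and missed the threshold (log2 fold change -0.31, adjusted p = 0.0546, edgeR).

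Of the 10 receptor complex adaptors, Traf1, which binds TRAF2 and the cIAPs at TNF receptors, rose by 0.41 on the log2 scale, from 316 ± 15.7 to 418 ± 22.4 CPM (mean ± SD of 3 libraries, edgeR adjusted p = 0.0422). It was called in 7 of the 14 alternatives, and not with upper-quartile scaling (adjusted p = 0.0542), with the replicate block, or without any 1 library other than W/O IL-10 replicate 1 (edgeR adjusted p up to 0.202). Ripk3 and Mlkl, the kinase and the effector of necroptosis, had log2 fold changes of -0.12 and 0.08 (adjusted p = 0.529 and 0.732, edgeR). Of the 11 genes that edit the ubiquitin chains of RIPK1, partner with an editor or signal from the chains, 0 were called by edgeR. Among them 2 had an unadjusted p under 0.05. Among these, Tnfaip3, the gene of the deubiquitinase A20, had 397 ± 53.1 and 306 ± 7.54 CPM (SD, n = 3) without overlap (log2 fold change -0.38, adjusted p = 0.121, edgeR).

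Of the 8 tested initiator and inflammatory caspases and their partners, 0 were called by edgeR (2 at an unadjusted p under 0.05), with the highest CPM for Casp2 (101 and 100.5). Of the 8 executioner caspases and caspase substrates 0 were called as well (0 at an unadjusted p under 0.05). Of the 7 genes of the mitochondrial step 0 were called. Bid, Bax and Htra2 were lower in each W/ IL-10 library (11.2% of all tested genes were) and had an unadjusted p under 0.05 (14.7% did). The median GC content of the 7 was 57.1%, with 63.5% for Bax, 60.1% for Htra2, 51.3% for Bid, 64.3% for Endog and 57.1% for Bak1. Bax and Htra2 (log2 fold changes -0.27 and -0.38) lie in the range above 60% GC, where the median of all tested genes was at -0.12. Bid lies in the range above 48% and up to 52%, where that median was -0.02. The part of GC content in these changes was not tested. Genes of the opposite strand cover 43.7% of the exon bases of Htra2, 17.7% of those of Bid and 0% of those of Bax. They also cover 35.7% in Endog, 25.5% in Bak1 and 23.5% in Diablo, which had log2 fold changes of -0.29, 0.12 and -0.0048 with overlapping groups. The part of this cover was not tested. Bid, the protein through which caspase-8 reaches the mitochondrion, had 62.3 ± 2.79 and 52.2 ± 5.07 CPM (SD, n = 3), a difference of -0.26 on the log2 scale (edgeR adjusted p = 0.218). Bak1, with the highest CPM of that list, had 86.9 and 94.5 CPM (edgeR adjusted p = 0.588). By other tools, 0 genes of these 4 lists were called with DESeq2 or limma-voom, apart from Tnfaip3 with DESeq2. With edgeR, Tnfaip3 was called without a filter (adjusted p = 0.00850), with the GC correction and block together (0.0219) and without W/O IL-10 replicate 1 (log2 fold change -0.49, adjusted p = 0.00475), and Rock1, one of the caspase substrates, was called without a filter.

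The list of other caspase inhibitors held 6 genes of the IAP family or tied to it: Birc5, Birc6, Xaf1, Naip2, Naip5 and Naip6. Its name is loose, as not all 6 inhibit caspases. Of these, Birc5 rose by 0.53 on the log2 scale, from 40.8 ± 2.78 to 58.9 ± 1.86 CPM (mean ± SD of 3 libraries, edgeR adjusted p = 0.0157). Birc5 encodes survivin, which belongs to the IAP family by sequence and is best known for its part in mitosis. It was called in 10 of the 14 alternatives, and not when W/O IL-10 replicate 2 or any W/ IL-10 library was left out (adjusted p up to 0.119, edgeR). Birc6, with the highest CPM of this list, had 377 ± 10.5 and 363 ± 57.5 CPM (SD, n = 3, adjusted p = 0.871, edgeR).

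The genes whose levels varied over the 6 libraries most like Cflar were Pms1, Malt1 and Zranb3. After centring on the log2 scale, their levels differed from those of Cflar by a root mean square of 0.04 each, out of 14916 tested genes compared over 6 libraries. Malt1, which encodes a paracaspase of antigen receptor signalling, had 318 and 379 CPM, and none of the 3 was called (adjusted p = 0.359, 0.273 and 0.276 in that order, edgeR). After the correction for GC content and length the log2 fold change of Malt1 was -0.16, while that of Cflar was 0.27.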

How the data were processed

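The authors deposited a table of raw counts per Ensembl gene for 6 libraries, without normalization. The submitters' processing notes name HISAT2, HTSeq and GRCm38, whereas the paper's methods name TopHat, Cufflinks and UCSC annotation, and the labels and methods also differ in the library kit (TruSeq and NEBNext). Versions and strand use are not given in the sources used here. If multiply mapped reads were dropped or split, genes with copies, such as Cycs, would be undercounted.

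Samples were grouped by their GEO description. From the counts, TMM factors (0.953 to 1.03) were derived in edgeR 4.0.16 (R 4.3.3). The test was that package's quasi-likelihood F test (glmQLFit, then glmQLFTest), with both groups in 1 fit and no block. A gene was tested where 3 or more libraries held 10 or more counts (14916 genes), the Benjamini-Hochberg adjustment ran over all of them, and a gene was called at an adjusted p-value under 0.05, with the paper's fold change of 1.5 given beside it. The standard error is the log2 fold change over the root of F, and the 95% interval, which is not adjusted for the number of genes, uses the total degrees of freedom of the fit (residual plus empirical Bayes prior, 8.85 for Casp8 and the others). Of the 29393 identifiers, 29332 were found in GENCODE M21, which gave symbols, merged exon lengths and the GC content of the longest transcript. Ratios of counts were compared by two-sided exact permutation tests, and with the replicate number as a block by exact sign-flip tests over the pairs. The 15 pairs of libraries held no identical columns, and each pair differed by more than the counting error.

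The alternatives were DESeq2 1.42.0, upper-quartile scaling, no filter, a minimum of 10 counts in each library, voom weights (limma-voom, limma 3.58.1), the replicate number as a block, a correction for GC content and length (splines with 5 degrees of freedom per library, as offsets), that correction with the block, and each library left out in turn. The 8 genes, the other lists and the tests were chosen with earlier results of these data known. Named are the 8 genes, each listed pathway gene past the threshold, the gene with the highest mean CPM of each list, and the 3 genes most like Cflar, the gene with the largest change. Fas, Fasl, Tnfrsf10b, Tnfrsf25, Ripk3, Mlkl, Bid, Bax, Htra2, Endog, Diablo, Birc2 and Rock1 were added after their values were seen. So were the genes that share sequence and the markers named. Xaf1, Naip2, Naip5 and Naip6 are named only as members of their list. Casp14 and Cd209a were not analysed here, and 1 further gene within the rule, with a ratio that used it, is not reported here. The steps were run on simulated counts with known changes of at least 1.5-fold and no GC trend. These changes were larger than the estimates for the 8 genes. The run therefore does not show whether changes as small as theirs could be called, or how the correction acts on a GC trend. Figures were drawn with matplotlib 3.10.9 (Python 3.11.15).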

Additional observations from a re-analysis of the deposited data

How the results depend on the processing

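Of the log2 fold changes of the 8 genes under the 14 alternatives, 109 kept their direction and stayed uncalled, 1 became a call (Cflar, given above) and 2 reversed: Xiap with the correction for GC content and length (-0.032), and with that correction and the replicate block (-0.033). With that last setting 1 of the 8 genes, 6 of the 60 pathway genes and 835 of all tested genes were called. DESeq2 called 7 of the 60 and 696 genes, and the fit without a filter 8 and 1239 genes. The correction alone called 514 genes. With each library left out in turn, the pathway count was 1 to 6 and the count over all genes 35 to 525, and 0 of the 8 genes were called in each of these fits. Under the replicate block 0 of the 8 genes, 3 of the 60 (Traf1 lost, adjusted p = 0.0535, edgeR) and 283 of all tested genes were called. Whether libraries of equal number share a cell preparation is not stated in the sources used here. Their deviations from the group means had correlations of 0.0524, -0.0573 and 0.114, which with so few libraries cannot settle it. The unblocked fit was kept as the main one. For the 2 count ratios, the difference of the mean log2 ratios is the same with the block by arithmetic. Exact sign-flip tests over the 3 pairs gave p = 1 for Cflar to Casp8 and 0.75 for Apaf1 to Cycs, where 3 pairs cannot go below 0.25.

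With the GC correction the difference of the Apaf1 to Cycs ratio reversed to 0.049, within the spread. Of the other genes named, small values crossed 0. Casp2 was at 0.0024 with the correction, 0.0053 with the correction and block, and -0.081 to 0.047 with a library left out. Birc6 ran from -0.13 to 0.072 with a library left out, and Malt1 was at -0.16 with the correction and -0.10 with the block added. The causes were not tested. Of the log2 fold changes of the other genes named by the rule, 136 kept their direction and their side of the threshold, 15 lost the call, 10 gained it and 7 reversed. Fadd had the fewest counts of the 8, 159 to 225 per library, and the part of depth in its standard error was not tested.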
